A study of Mus musculus with 66 samples.

Results

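The comparison described here sets mouse oocytes taken 1 day after birth (P1, labelled oocytes) against the germ cells of the ovary just before birth (E18.5, a late embryonic stage, labelled germ cells). Genes were included where the mean reached 1 RPM in either group, RPM being the number of reads of a gene per 1000000 reads of its library. That was 13442 of the 24062 genes in the table, read in 6 of the 66 libraries of the series. Of the 13442 genes, 12233 reached the minimum in both groups, 522 reached it at P1 only and 687 at E18.5 only. Close to the limit, Tspan12, Ppm1j and Cd68 entered just above 1 RPM, while Slitrk1 stayed out at 0.9996 RPM, Becn2 at 0.9992 RPM and Ano4 at 0.9990 RPM.

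The series follows oocytes in the ovary and in reconstituted ovaries grown from stem cells, and asks how oocytes enter dormancy. Both groups used here came from untreated ovaries of C57BL/6 x B6D2F1 mice that carried the stella-ECFP(SC) reporter transgene, named after stella, the older name of Dppa3. Each group had 3 libraries, described as biological triplicates, and each library held poly(A) RNA of isolated cells in bulk. How many animals and cells went into a library, and how the cells were picked from the ovary, is not given in the sources used here. P3 oocytes of the same strain and reporter, also 3 libraries, serve below as the next stage.

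Around birth the female germ cells of the mouse leave the clusters in which they developed. They reach the late prophase of the first meiotic division and arrest there. Each surviving oocyte is then wrapped by a few flat pregranulosa cells and becomes a primordial follicle, which may rest for most of the animal's life. In the same window oocytes begin to make the proteins of the egg coat and of the maternal stores. The transcription factor FOXO3 is known for holding primordial oocytes at rest, and the KIT receptor and PI3K signalling are known for releasing them.

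The 6 libraries held between 16.23 and 23.19 M reads (M standing for 1000000) assigned to genes, so that 3 reads corresponded to 0.129 to 0.185 RPM. Within a group the Pearson r between libraries was 0.982 to 0.992 across genes on the log2(RPM + 1) scale. A chi-square per gene of 8.28 to 24.0 between libraries of a group was well above the sampling noise of 1, and no library was a copy of another. Germ-cell markers were high in both groups: the 13 listed summed to 7024 to 7558 RPM at E18.5 and to 7413 to 7727 RPM at P1. Markers of granulosa cells, which surround the oocyte, were low and moved: the 24 listed summed to 81.4, 155 and 148 RPM in E18.5 replicates 1 to 3 and to 67.8, 58.3 and 72.9 RPM at P1. Fshr was at 0 reads in all 6 libraries, and Amh stayed under 0.84 RPM. The 16 markers of stroma and theca summed to 71.5 to 119 RPM at E18.5 and 60.3 to 65.2 RPM at P1 with Cyp17a1 at 0, and the 10 of endothelium to 22.6 to 43.7 and 18.8 to 29.5 RPM. Blood and immune markers, 19 in all, summed to 6.79 to 28.5 RPM at E18.5 and 9.67 to 18.3 RPM at P1 with Hbb-y at 0, and the 8 of surface epithelium to 91.8 to 125 and 83.6 to 117 RPM. Ptch1 was the largest member of the stroma and theca sum, with means of 37.0 RPM at E18.5 and 40.5 RPM at P1. Bnc1 was the largest of the surface epithelium sum, with means of 64.6 and 71.3 RPM. Both sums thus say little of their smaller members.

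The P1 libraries lay between E18.5 and P3, but not at one place. On a scale that puts the mean of E18.5 at 0 and the mean of P3 at 1 over all 13442 genes, P1 replicates 1, 2 and 3 stood at 0.562, 0.809 and 0.725. The 1556 genes at least 1 log2 unit higher at P3 than at E18.5 put them at 0.500, 0.816 and 0.730, and the 1316 genes at least 1 log2 unit lower put them at 0.648, 0.807 and 0.725. Replicate 1 was thus nearest to E18.5 by each of these gene sets, and its values are given separately wherever the groups are listed. The E18.5 libraries spread from -0.07 to 0.06 and the lowest P3 library stood at 0.955 over all genes.

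**Figure D1:**
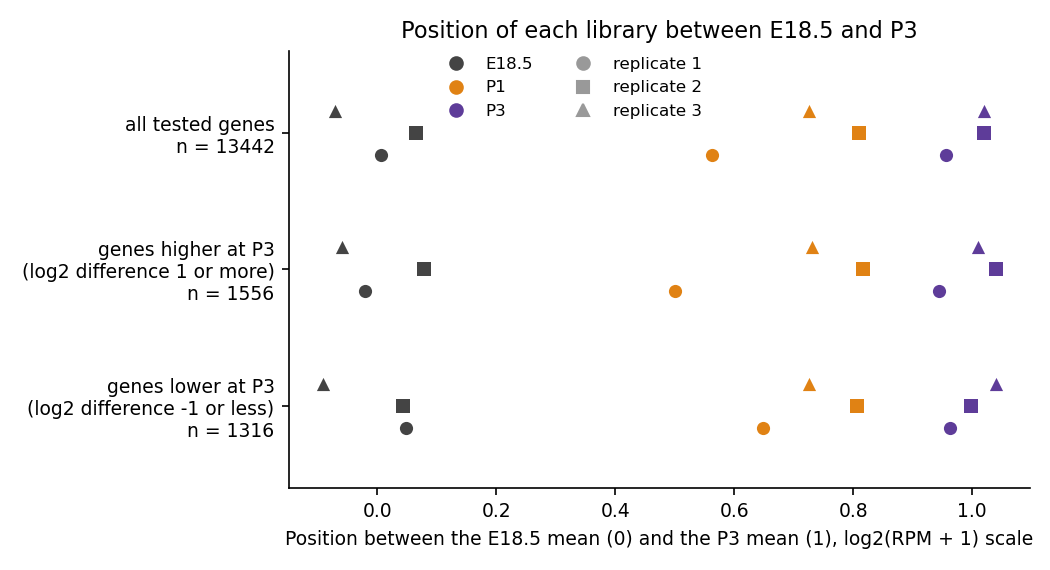
Position of each library of E18.5, P1 and P3 between the mean of E18.5 (0) and the mean of P3 (1) on the log2(RPM + 1) scale, over all tested genes and over the genes higher or lower at P3; colours give the stage and symbols the replicate. P1 replicate 1 lies at 0.562 over all genes, to the left of replicates 2 (0.809) and 3 (0.725), in each of the 3 rows.

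Many genes differed between the stages: 6753 of the 13442 genes passed the test (50.2%), of which 3108 were higher at P1 (23.1% of the genes tested) and 3645 were lower (27.1%). Most shifts were small. A log2 difference of at least 1 was reached by 1765 of the called genes (13.1%), by 976 upward (7.26%) and by 789 downward (5.87%). The median log2 difference over all genes was -0.05, the 10th percentile -0.77 and the 90th 0.84, and the extremes were 3.78 and -4.15. For 7782 genes (57.9%) all 3 P1 values lay on one side of all 3 E18.5 values. The test is limma on log2(RPM + 1), whose differences understate the change of genes near 1 RPM, and leaving out any of the 6 libraries left between 5470 and 6567 genes called, 6567 being the count without P1 replicate 1. The p-values rest on the spread between libraries within all 9 in vivo groups, not within the compared groups alone. In bulk libraries fewer cells of a type and less RNA per cell cannot be told apart.

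**Figure D2:**
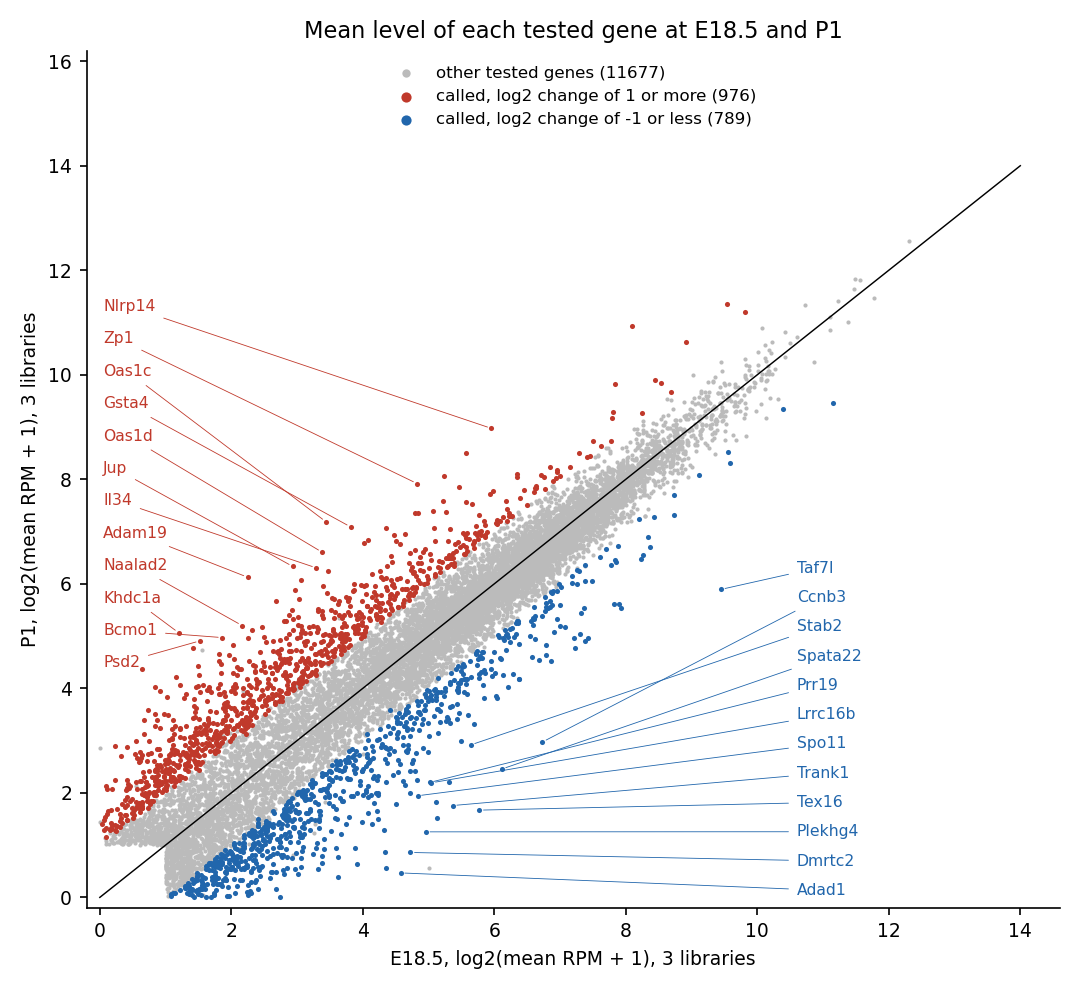
Mean level at E18.5 (horizontal axis) and at P1 (vertical axis) of each of the 13442 tested genes, as log2(mean RPM + 1) over 3 libraries a group; the line marks equal levels, and colours mark called genes with a log2 difference of at least 1. The 976 coloured genes above the line and the 789 below it include the 12 largest rises and falls among genes of at least 20 RPM in a group, which carry their symbols.

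Genes of the egg coat were among those that gained at P1. All 3 zona pellucida genes, which encode the glycoproteins of the egg coat, rose. Their median log2 difference was 2.79, against -0.05 over all genes, of which 23.1% were higher and 27.1% lower. Zp1 measured 29.9, 34.9 and 17.3 RPM in E18.5 replicates 1 to 3 and 134, 320.0 and 269 RPM in P1 replicates 1 to 3, in the order used throughout. Every P1 library was thus well above every E18.5 library, with replicate 1 the lowest of P1 (log2 difference 3.06, SE 0.22, adjusted p = 1.11e-10). Zp3, another coat component, went from 33.2, 38.9 and 38.3 RPM to 203, 328 and 266 RPM (2.79, SE 0.18, adjusted p = 2.74e-11), and Zp2 from 190, 319 and 170 RPM to 621, 1290 and 787 RPM (1.97, SE 0.20, adjusted p = 2.29e-08). Summed, the zona genes took 253, 393 and 226 RPM before birth, 957, 1938 and 1321 RPM at P1 and 2911 to 3807 RPM at P3.

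The subcortical maternal complex, a protein assembly under the egg cortex that early embryos need, rose with them. Of its 7 tested genes 6 were higher at P1 and none was lower (median 1.36), beside 23.1% higher and 27.1% lower over all genes. Padi6, an arginine deiminase relative of the oocyte lattices, measured 288, 319 and 211 RPM at E18.5 and 1237, 2529 and 2103 RPM at P1 (log2 difference 2.80, SE 0.20, adjusted p = 1.05e-10). Khdc3 went from 10.3, 6.98 and 4.90 RPM to 38.02, 91.6 and 69.0 RPM, a difference of 2.97, and Ooep from 49.2, 58.4 and 32.0 RPM to 169, 546 and 377 RPM, a difference of 2.83. Nlrp5, also called Mater, started higher, at 843, 815 and 1036 RPM, and reached 1721, 2285 and 3042 RPM (1.36, SE 0.37, adjusted p = 0.0039). In none of these 4 genes did the groups overlap. Zbed3 was the tested member that was not called, at 0.39. Leaving out any one library kept the counts at 3 of 3 zona genes and 6 of 7 complex genes.

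The sequences just before the RefSeq start of a zona gene and of a complex gene are shown. Both groups rose, and both genes hold the form marked below. FIGLA, known to activate zona genes, binds E-boxes, of the general form CANNTG. One form, CAGGTG, read on the opposite strand as CACCTG, is in capitals in the 250 bases before the start, 5′ to 3′ on the gene's strand. Other E-box forms stay in lower case, among them the CACGTG of Zp3. Which of them FIGLA binds was not tested. Zp3 is on the plus strand at chr5:135979855-135980104 and Padi6 on the minus strand at chr4:140742644-140742893 of GRCm38.p6, with the first base of the match 55 bases before the start in Zp3 and 78 in Padi6.
Zp3: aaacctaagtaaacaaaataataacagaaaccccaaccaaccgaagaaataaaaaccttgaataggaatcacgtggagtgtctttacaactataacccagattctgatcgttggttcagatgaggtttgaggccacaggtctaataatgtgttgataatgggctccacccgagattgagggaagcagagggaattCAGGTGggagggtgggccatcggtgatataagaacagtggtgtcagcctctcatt
Padi6: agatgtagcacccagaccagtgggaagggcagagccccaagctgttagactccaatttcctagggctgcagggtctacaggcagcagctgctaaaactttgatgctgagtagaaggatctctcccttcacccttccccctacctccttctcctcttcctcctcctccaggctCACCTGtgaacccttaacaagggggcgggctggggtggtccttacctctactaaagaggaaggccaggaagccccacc
The same 250 bases were at hand for 10085 of the 13442 tested genes, 1 RefSeq promoter a gene. This form, on either strand, was in 15.7% of these (17.1% of all promoters in the table), in 24.5% of the 714 promoters of genes that rose by at least 1 log2 unit and in 15.4% of the 573 of genes that fell as far. The general E-box CANNTG, which includes it, was in 57.4%, 66.8% and 57.6% of the same 3 sets. Of the 7 complex genes with a promoter 3 held CAGGTG or CACCTG, namely Padi6, Khdc3 and Zbed3, the last of which was not called. Zp3 was the only zona gene with a promoter at hand. These shares describe letters in a window, with no account of base composition.

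Oocyte paralogues of Oas1 and Khdc1 were among the steepest rises, and all 7 tested members were called higher (median 2.71), beside 23.1% over all genes. Oas1c, a relative of the 2′-5′ oligoadenylate synthetases of antiviral defence, went from 11.6, 12.4 and 5.55 RPM to 61.4, 204 and 169 RPM (log2 difference 3.65, SE 0.27, adjusted p = 1.97e-10). Khdc1a, a KH-domain gene of the oocyte, was at 0.431, 2.56 and 0.896 RPM before birth and at 13.1, 57.3 and 27 RPM after it (3.74, SE 0.36, adjusted p = 1.36e-08). Members of these families are close copies, so reads may be split among them, and P1 replicate 1 was the lowest P1 library for both genes. Oas1d and Oas1h rose by 3.16 and 2.71. Of 7 tested NLRP genes outside the complex 3 rose and none fell, beside 23.1% higher and 27.1% lower over all genes. Nlrp14 led them, from 49.4, 85.6 and 48.4 RPM to 396, 669 and 441 RPM (3.03, SE 0.27, adjusted p = 3.85e-09), and Nlrp4g rose by 1.41.

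The other 7 of the 12 largest rises belonged to none of these families. Adam19, a membrane-bound metalloprotease, showed the largest of all named rises, from 3.32, 4.28 and 3.64 RPM to 37.0, 97.3 and 72.4 RPM (log2 difference 3.78, SE 0.37, adjusted p = 1.61e-08). Gsta4, a glutathione transferase that clears products of lipid peroxidation, went from 20.1, 10.2 and 8.96 RPM to 85.8, 152 and 168 RPM (3.30, SE 0.30). Jup, the junction protein plakoglobin, rose by 3.27 and reached 35.2, 120 and 83.9 RPM. Il34, a ligand of the receptor CSF1R, rose by 3.02 and reached 45.2, 104.6 and 84.4 RPM. Psd2, an exchange factor for ARF GTPases, rose by 3.34, Bcmo1, which cleaves beta-carotene, by 3.10 and the peptidase gene Naalad2 by 2.99. Groups without overlap were a condition for being among the 12, and in each the lowest P1 value was that of replicate 1.

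**Figure D3:**
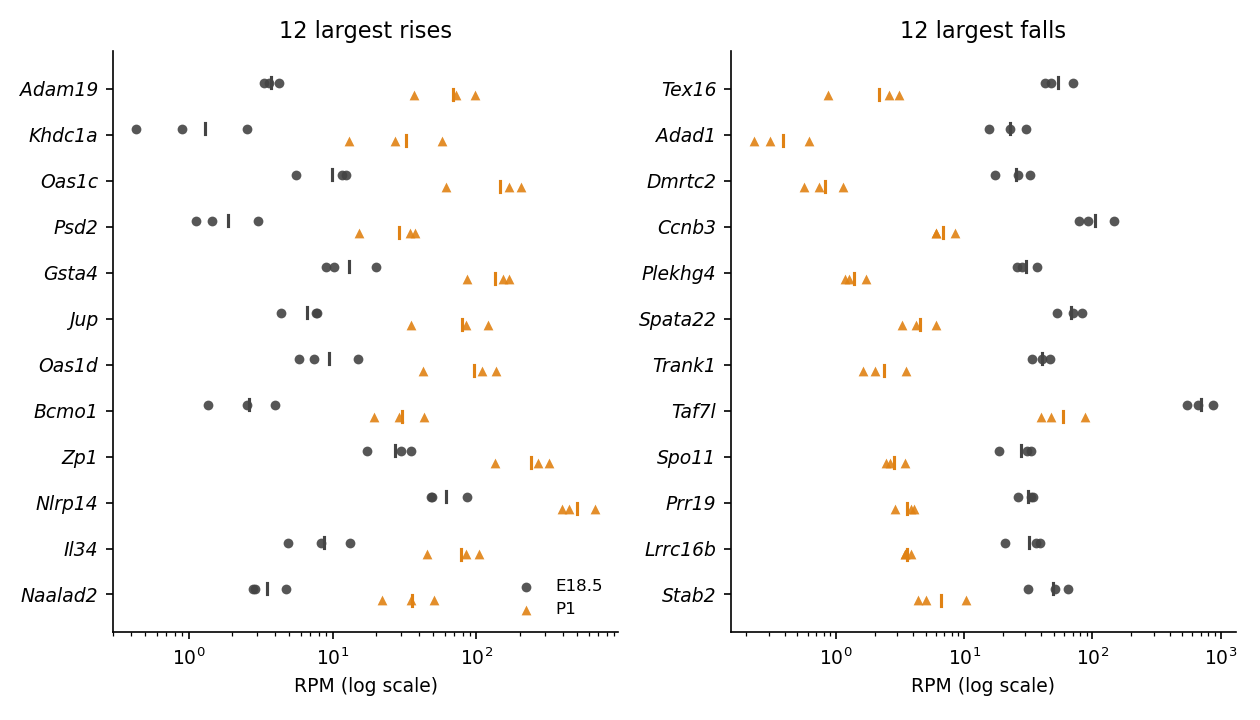
RPM on a log axis of the 12 largest rises (left) and the 12 largest falls (right) in each of the 3 E18.5 libraries (grey circles) and the 3 P1 libraries (orange triangles); short bars are group means. Groups without overlap were a condition of the choice. Adam19 moves from 3.75 RPM to 68.9 RPM on average and Taf7l from 697 to 58.4 RPM.

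The list of growth factors exchanged between oocyte and follicle had 4 of 5 tested genes higher and 1 lower. Over all genes 23.1% were higher and 27.1% lower. Gdf9, needed for follicles to grow beyond the primary stage, was at 33.9, 47.8 and 31.2 RPM before birth and at 108, 205 and 183 RPM at P1 (log2 difference 2.08, SE 0.18, adjusted p = 1.78e-09). Bmp15, its partner, was scarce in both groups, at 1.68, 3.63 and 3.52 RPM and then 6.35, 6.52 and 7.89 RPM (1.04, SE 0.21, adjusted p = 0.00024). Bmp6 and Tgfb2 rose by 0.62 and 0.60. With E18.5 replicate 2, E18.5 replicate 3 or P1 replicate 3 left out, the count higher was 2 of 5, and Bmp6 was no longer called. The gene that fell was Kitl, the KIT ligand that granulosa cells supply, from 14.53, 22.9 and 28.7 RPM to 12.0, 6.87 and 8.35 RPM (-1.18, SE 0.23, adjusted p = 0.00015). The summed granulosa markers, of which Kitl is one, fell over the same libraries as given above, and their part in this difference was not tested.

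Genes that store maternal mRNA and prepare maternal chromatin changed member by member. Of 14 tested storage genes 8 were higher and 3 lower (median 0.33), beside 23.1% higher and 27.1% lower over all genes. Zar1, a zygote arrest gene, went from 1.73, 1.72 and 2.03 RPM to 6.41, 29.9 and 25.2 RPM (log2 difference 2.69, SE 0.35), Eif4e1b, an oocyte cap-binding protein, rose by 2.30 and Btg4, an adaptor for deadenylation of maternal mRNA, by 1.24. Dazl, Ddx4 and Cpeb1, RNA-binding proteins of germ cells, were the 3 that fell, Dazl by 0.75. Among 14 chromatin genes 6 were higher and 2 lower (median 0.24), with 1 lower when E18.5 replicate 3, P1 replicate 2 or P1 replicate 3 was left out. Npm2, the oocyte nucleoplasmin, rose from 8.19, 5.26 and 6.99 RPM to 39.5, 58.3 and 76.6 RPM (2.89, SE 0.29, adjusted p = 1.69e-08), the oocyte linker histone H1foo by 1.06 and Zfp57, a keeper of imprints, by 1.03. Dppa3, the gene after which the reporter is named, was at 1136, 1217 and 885 RPM before birth and at 1861, 1825 and 2051 RPM after it (0.84, SE 0.32, adjusted p = 0.031). It was not called with E18.5 replicate 3 (adjusted p = 0.119) or P1 replicate 1 (0.0520) left out. Leaving out P1 replicate 2 (0.0562) or P1 replicate 3 (0.0811) also lost the call. At E16.5, whose spread enters its error, Dppa3 measured 90.5, 18.9 and 90.5 RPM.

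Of 17 tested transcription factors of primordial follicle formation 3 were higher, 6 were lower and 8 were not called, beside 50.2% called over all genes (median -0.15). Nobox measured 491, 473 and 471 RPM and then 499, 652 and 591 RPM (log2 difference 0.27, SE 0.21, adjusted p = 0.30). Figla measured 430, 436 and 275 RPM and then 259, 294 and 294 RPM (-0.40, SE 0.21, adjusted p = 0.11), called lower only when E18.5 replicate 3 was left out (adjusted p = 0.0245). Sohlh1 differed by 0.23 (adjusted p = 0.42) and Lhx8 by -0.35 (adjusted p = 0.13). The 95% intervals reached from -0.17 to 0.71 for Nobox, from -0.82 to 0.03 for Figla, from -0.24 to 0.70 for Sohlh1 and from -0.74 to 0.04 for Lhx8. With the 6 compared libraries alone Nobox was called higher (adjusted p = 0.0481) and Lhx8 lower (adjusted p = 0.0213). Tbpl2, the oocyte form of the TATA-binding protein, rose, from 10.9, 19.3 and 7.88 RPM to 44.5, 52.4 and 55.5 RPM (2.00, SE 0.18, adjusted p = 4.94e-09). Id1, an inhibitor of E-box factors, fell from 438, 148 and 336 RPM to 74.0, 92.7 and 110 RPM (-1.61, SE 0.29), Id3 fell by 0.95 and Gata4, a granulosa marker, by 1.12.

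Genes of meiotic chromosome structure fell, beside 27.1% called lower and 23.1% called higher over all genes. Of 16 tested genes of the chromosome axis and synaptonemal complex, the ladder that holds paired chromosomes together, 12 were lower at P1 and none was higher (median -1.04). Sycp2 measured 216, 210 and 289 RPM at E18.5 and 45.4, 49.1 and 50.04 RPM at P1 (log2 difference -2.27, SE 0.14, adjusted p = 9.31e-12). Six6os1, listed in the table as 4930447C04Rik, fell from 232, 199 and 298 RPM to 52.9, 40.8 and 42.6 RPM (-2.38), the axis gene Hormad1 by 1.91 and the meiotic cohesin Rad21l by 2.10. Sycp1, of the central region, fell from 769, 651 and 878 RPM to 383, 283 and 284 RPM (-1.27, SE 0.15, adjusted p = 1.63e-07). Sycp3, the best known axis protein, stayed abundant at 872, 606 and 633 RPM and then 632, 457 and 567 RPM, with overlapping groups (-0.34, SE 0.15, adjusted p = 0.060). It was called lower only without E18.5 replicate 2 (adjusted p = 0.0325) or P1 replicate 1 (0.0277). Syce1, Rec8 and Tex11 were the others not called.

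Of 24 tested recombination genes 15 were lower and none was higher (median -0.74), beside 27.1% lower and 23.1% higher over all genes. Spata22, which binds single-stranded DNA with MEIOB, was at 70.0, 52.8 and 82.2 RPM before birth and at 5.98, 4.23 and 3.26 RPM at P1 (log2 difference -3.67, SE 0.23, adjusted p = 1.40e-11). Spo11, the enzyme that makes the meiotic breaks, went from 30.9, 18.7 and 32.9 RPM to 2.47, 2.65 and 3.43 RPM (-2.86, SE 0.20), Mei1 fell by 2.38 and the helicase gene Hfm1 by 2.11. Of the genes of crossover repair, Msh5 differed by -0.12 without being called, while Mlh3 fell by 0.67. One member was called higher without E18.5 replicate 1, without P1 replicate 1 or after rescaling to median ratios. Of the 4 tested genes of meiotic entry 3 fell, led by Meioc, listed as Gm1564, from 32.0, 19.6 and 48.7 RPM to 2.40, 2.65 and 2.57 RPM (-3.19). Stra8 had under 1 RPM in both groups and was not tested.

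Germline TAF paralogues and other germline genes, 10 of the 14 tested on the X chromosome, had the lowest median of the lists, at -1.59 in log2. In this list 13 were lower and none higher, beside 27.1% lower and 23.1% higher over all genes. Taf7l, a germ-cell paralogue of a TFIID subunit, dropped from 669, 550 and 873 RPM to 87.9, 39.9 and 47.5 RPM (log2 difference -3.61, SE 0.22, adjusted p = 7.93e-12). Its P1 replicate 1 was the highest of the P1 group and still far below every E18.5 library. Tex16 went from 47.9, 42.9 and 70.2 RPM to 2.59, 0.865 and 3.09 RPM (-4.15, SE 0.26), the largest named fall. Taf7l2, listed as 4933416C03Rik, fell by 3.06, Tex101, a germ-cell surface protein, by 2.50 and Taf9b by 2.47. Usp26 was the member not called.

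Promoters of 1 TAF gene and 2 chromosome axis or synapsis genes that fell are shown because the palindrome CACGTG, an E-box form bound by many basic helix-loop-helix factors, stood near their starts. It is in capitals in the 250 bases before the RefSeq start, 5′ to 3′ on the gene's strand. Taf7l is at chrX:134476491-134476740 on the minus strand, Hormad1 at chr3:95559427-95559676 on the plus strand and Sycp1 at chr3:102936101-102936350 on the minus strand, build GRCm38.p6.
Taf7l: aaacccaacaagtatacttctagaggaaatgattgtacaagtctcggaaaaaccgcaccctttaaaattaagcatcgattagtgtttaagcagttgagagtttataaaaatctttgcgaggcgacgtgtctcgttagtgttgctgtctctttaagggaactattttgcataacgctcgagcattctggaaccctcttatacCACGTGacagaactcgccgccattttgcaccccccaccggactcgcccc
Hormad1: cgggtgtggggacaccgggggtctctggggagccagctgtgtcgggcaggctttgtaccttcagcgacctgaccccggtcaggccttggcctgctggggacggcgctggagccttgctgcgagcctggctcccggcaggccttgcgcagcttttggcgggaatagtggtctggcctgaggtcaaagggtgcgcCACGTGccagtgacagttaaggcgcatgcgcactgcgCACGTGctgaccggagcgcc
Sycp1: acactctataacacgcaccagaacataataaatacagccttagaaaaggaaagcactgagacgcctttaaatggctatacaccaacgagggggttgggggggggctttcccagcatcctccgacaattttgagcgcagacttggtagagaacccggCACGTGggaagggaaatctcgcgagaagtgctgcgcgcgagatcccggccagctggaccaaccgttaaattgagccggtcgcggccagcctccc
The first base of the match lay 49 bases before the start in Taf7l, 57 and 20 bases in Hormad1 and 94 bases in Sycp1. CACGTG was in the window of 6 of 15 axis and synapsis genes with a promoter (40%), namely Sycp1, Sycp3, Tex12, Six6os1, Hormad1 and Stag3, and in 4 of 9 of the germline TAF list (Taf7l, Taf9b, Nxf2 and Mov10l1). It was in 1 of 15 recombination genes, in 8.53% of all tested genes with a promoter and in 6.05% of all promoters in the table. Genes that fell by at least 1 log2 unit held it in 7.68% of windows and genes that rose as far in 7.14%. Zp3, which rose, also has 1 in its window, in lower case above.

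The other large falls included more germ-cell genes. Ccnb3, a cyclin of meiotic prophase, went from 91.8, 78.0 and 146 RPM to 6.04, 6.01 and 8.52 RPM (log2 difference -3.72, SE 0.24, adjusted p = 3.21e-11). Adad1, a germ-cell protein with an adenosine deaminase domain, was left with 0.616, 0.305 and 0.229 RPM after 22.6, 15.5 and 30.5 RPM (-4.07, SE 0.23), close to the 3-read level of these libraries. Dmrtc2 fell by 3.83, Plekhg4 by 3.70, Trank1 by 3.64, Prr19, a crossover factor, by 2.81 and Lrrc16b by 2.80. Stab2, a scavenger receptor for hyaluronan, fell from 31.3, 51.3 and 64.4 RPM to 5.05, 10.3 and 4.35 RPM with the widest error of the 12 (-2.75, SE 0.77, adjusted p = 0.0048).

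The piRNA pathway, which silences transposons in germ cells, had 11 of 20 tested genes lower and 2 higher (median -0.64). Over all genes 27.1% were lower and 23.1% higher. Mael, a piRNA factor, measured 747, 731 and 770 RPM and then 358, 424 and 325 RPM (log2 difference -1.03, SE 0.20, adjusted p = 0.00018), Tdrkh fell by 1.08 and Tdrd9 by 0.99. The Piwi genes themselves were not called, with Piwil2 at -0.20 and 986 against 864 RPM on average. Gtsf1 and Tdrd5 were the 2 that rose, by 0.76 and 0.83. Germ cell and pluripotency genes split: 7 of 15 tested were higher and 3 lower (median 0.34). Pou5f1, the pluripotency factor that growing oocytes store, went from 33.8, 38.5 and 26.8 RPM to 97.1, 144 and 157 RPM (1.96, SE 0.18), and Lin28a, which binds let-7 precursors, rose by 2.30 while its paralogue Lin28b fell by 1.35. Dppa5a rose by 1.60 and Prdm1 by 1.45. Sox2, Nanog and Prdm14 were under 1 RPM in both groups.

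Foxo3, the factor held to keep primordial oocytes dormant, was lower at P1, at 223, 221 and 217 RPM after 276, 288 and 325 RPM, without overlap (log2 difference -0.42, SE 0.11, adjusted p = 0.0036). Foxo1 differed by -0.13 without a call. Kit, the receptor upstream, stayed at 1542, 1621 and 1517 RPM and then 1939, 1532 and 1563 RPM, with overlapping groups (0.10, SE 0.11, adjusted p = 0.50). Of the 28 tested genes of KIT, PI3K and FOXO signalling 5 were higher, 9 lower and 14 not called (median -0.11), beside 23.1% higher and 27.1% lower over all genes. The PI3K regulatory subunit Pik3r1 rose by 0.91 and the catalytic subunit Pik3cd by 0.82, while Pik3r3 fell by 0.78 and Pik3ca by 0.66. Mtor and Rptor fell by 0.47 and 0.45.

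Of 27 tested genes known as FOXO targets in other cells 16 rose and 4 fell, with a median of 0.55, beside 23.1% higher, 27.1% lower and a median of -0.05 over all genes. Leaving out any library kept between 13 and 16 of them higher. Txnip, an inhibitor of thioredoxin and glucose uptake, went from 246, 233 and 184 RPM to 495, 701 and 534 RPM (log2 difference 1.38, SE 0.13, adjusted p = 1.16e-08). Cdkn1b, the cell-cycle inhibitor p27, went from 24.3, 32.4 and 27.8 RPM to 47.3, 72.7 and 71.3 RPM (1.14, SE 0.18, adjusted p = 1.68e-05). Gabarapl1, of autophagosomes, rose by 1.74 and the mitochondrial kinase gene Pink1 by 1.46. Klf2, Klf6, Trib1 and Igfbp1 were the 4 that fell, Klf2 by 1.56 from 5.48, 16.19 and 5.97 RPM to 2.28, 1.63 and 2.52 RPM. Bbc3, a pro-death BH3 gene, was just called (0.80, adjusted p = 0.0480) and lost that call when any one of E18.5 replicates 1 and 2 or P1 replicates 1, 2 and 3 was left out. The transcript of Foxo3 itself was lower at P1 in the same libraries.

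Of 35 tested HIF targets, genes that answer to hypoxia, 10 were higher and 11 lower (median 0.11), beside 23.1% higher and 27.1% lower over all genes. Vegfa, the vascular growth factor, went from 9.92, 18.6 and 14.99 RPM to 4.44, 2.29 and 3.55 RPM (log2 difference -1.80, SE 0.25, adjusted p = 2.89e-06), and Ddit4 fell by 1.75. Pfkfb3, a regulator of glycolysis, rose from 15.5, 26.9 and 20.1 RPM to 59.4, 98.4 and 94.0 RPM (1.96, SE 0.21), and Ndrg1 by 1.89. Ldha fell by 0.62 with overlapping groups (adjusted p = 0.023), and was not called without E18.5 replicate 2 (adjusted p = 0.183), P1 replicate 1 (0.133) or P1 replicate 2 (0.0512). Its paralogue Ldhb moved the other way, from 489, 540 and 419 RPM to 1246, 1779 and 1731 RPM (1.70, SE 0.13, adjusted p = 2.62e-10). Of 17 glycolytic genes 7 were higher and 4 lower, the latter 2 without E18.5 replicate 2 or P1 replicate 2. Hk1 and Aldoc rose by 1.67 and 1.61 from a few RPM, and the muscle enolase Eno3 fell by 1.54. Among 35 oxygen-sensing and antioxidant genes 17 rose and 8 fell (median 0.27), with 4 lower without P1 replicate 2. Beside Gsta4, Prdx2 rose by 1.5, Gpx1 by 1.24 and Epas1, which encodes HIF-2 alpha, by 1.29.

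Of 25 tested genes of fatty acid oxidation 11 were higher and 3 lower (median 0.15), beside 23.1% higher and 27.1% lower over all genes, with 1 lower when E18.5 replicate 3 or P1 replicate 2 was left out. Echs1, an enzyme of the oxidation cycle, went from 26.6, 36.2 and 24.5 RPM to 64.0, 81.1 and 78.9 RPM (log2 difference 1.34, SE 0.12, adjusted p = 4.40e-09), and Hadh and Eci1 rose by 1.17 and 1.11. Cpt1a, the entry enzyme, differed by 0.06. Fasn, which builds fatty acids, fell instead, from 101, 101 and 155 RPM to 27.4, 36.1 and 34.3 RPM (-1.82, SE 0.16, adjusted p = 4.03e-09). Of 21 cholesterol genes 8 were higher and none lower (median 0.24). The respiratory chain had 20 genes called higher and 6 called lower among 76 (median 0.18), its higher share near the 23.1% of all genes, with 3 lower when P1 replicate 2 or P1 replicate 3 was left out. Their changes were small, Ndufb2 at 0.88 and Cox6b1 at 0.69 being among the largest. Autophagy genes gave 11 higher and 4 lower of 33 (median -0.03), with the cargo receptor Optn at 1.77 and the kinase Ulk2 at -0.85.

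Genes of protein folding were often lower at P1. Heat shock proteins and chaperones gave 17 lower and 1 higher of 29 tested (median -0.30), and 12 to 17 lower with any library left out. Over all genes 27.1% were lower and 23.1% higher. The single gene higher became 2 without P1 replicate 1. The inducible Hspa1b fell from 3.71, 16 and 13.6 RPM to 1.79, 0.56 and 0.458 RPM (log2 difference -2.51, SE 0.38). Its near-identical copy Hspa1a, with which it may share reads, fell by 2.24. E18.5 replicate 1 had the lowest value of its group for both, as it had the lowest granulosa sum. The part of granulosa cells in these falls was not tested. The abundant Hspa8 fell by 0.38 and Hspa5, the chaperone of the endoplasmic reticulum, by 0.91, while Hspa2, the germ-cell form, rose by 0.92. Of 40 ribosome biogenesis genes 16 were lower and 4 higher (median -0.12), with 9 lower without P1 replicate 2 and 2 higher without E18.5 replicate 1 or P1 replicate 1. Utp20 fell by 0.68 and Polr1b by 0.54. Of 80 ribosomal protein genes 62 were not called, 14 were higher and 4 lower (median 0.05). The 14 became 6 without E18.5 replicate 3 and 8 without P1 replicate 2 or P1 replicate 3, and the 4 became 7 without E18.5 replicate 3 and 2 without E18.5 replicate 1. Of 31 proteasome genes 8 were higher and 10 lower, near the shares over all genes. The 10 became 6 without E18.5 replicate 1, P1 replicate 2 or P1 replicate 3.

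Of 25 immediate early genes, which respond quickly to many stimuli including tissue handling, 10 were lower and 2 higher (median -0.63). Over all genes 27.1% were lower and 23.1% higher. The count of 2 was 1 without E18.5 replicate 1, P1 replicate 2 or P1 replicate 3. Jun went from 52.1, 130 and 96.0 RPM to 39.6, 28.4 and 25.5 RPM (log2 difference -1.47, SE 0.27, adjusted p = 8.16e-05), and Ier5 and Atf3 fell by 1.34 and 1.19. Fos, at 73.8 RPM before and 68.8 RPM after birth on average, and Egr1 were not called, and Egr2 rose by 1.87. E18.5 replicate 1 had the lowest Jun of its group, as it had the lowest granulosa sum, and the part of such cells in the difference was not tested. Unfolded protein and amino acid stress genes gave 7 higher and 5 lower of 26 (median 0.11), beside the same 23.1% and 27.1% over all genes. The 5 became 3 without E18.5 replicate 3 or P1 replicate 3. Psat1, of serine synthesis, rose by 1.08 and the amino acid carrier Slc7a5 by 0.98.

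Of 23 tested genes of the p53 and p63 checkpoint 7 were higher and 6 lower (median 0.17), near the 23.1% higher and 27.1% lower over all genes. The 7 became 4 without E18.5 replicate 1 or P1 replicate 2, and the 6 became 2 without E18.5 replicate 2, E18.5 replicate 3 or P1 replicate 3 and 3 without P1 replicate 1. Trp63, whose product removes damaged oocytes, went from 185, 216 and 168 RPM to 316, 284 and 316 RPM (log2 difference 0.69, SE 0.21, adjusted p = 0.0075), and Chek2, the kinase that activates it, from 21.5, 19.9 and 22.5 RPM to 46.1, 61.1 and 46.8 RPM (1.22, SE 0.13, adjusted p = 8.45e-08). Of 24 BCL2 family and cell death genes 7 were higher and 6 lower (median -0.03), also near those shares, with 3 lower without E18.5 replicate 3. The survival genes Bcl2l2 and Bcl2l10 rose by 1.12 and 1.005, and so did the killer gene Bcl2l11, by 0.79. Of 22 genes of meiotic arrest and its release 11 were higher and 6 lower (median 0.26), with 3 lower without P1 replicate 2. Cdc25b, the phosphatase that starts meiotic resumption, went from 4.74, 6.65 and 4.84 RPM to 21.7, 74.8 and 53.4 RPM (2.84, SE 0.32), and Wee2, the kinase that opposes it, and Gpr3, the receptor that keeps cAMP high, rose by 1.30 and 1.27. Npr2, a receptor of granulosa cells in grown follicles, fell by 1.54. Proliferation genes gave 8 higher and 7 lower of 31 (median 0.01).

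Adhesion and cyst genes gave 9 higher and 9 lower of 27 tested (median 0.07), beside 23.1% higher and 27.1% lower over all genes. Epcam, an epithelial adhesion protein of germ cells, went from 60.8, 54.9 and 44.3 RPM to 138, 178 and 157 RPM (log2 difference 1.55, SE 0.16, adjusted p = 2.25e-08), and Cdh1, E-cadherin, rose by 0.83. N-cadherin Cdh2 and P-cadherin Cdh3 fell by 1.55 and 1.23. With any one library left out between 6 and 8 were lower. Of 21 receptors and mediators of steroids and TGF-beta ligands 4 rose and 3 fell (median -0.06), both below the shares over all genes. The BMP receptor Bmpr1b rose by 1.88. Esr1, the estrogen receptor alpha gene, measured 36.7, 8.98 and 9.44 RPM and then 70.9, 41.4 and 49.3 RPM, so that the first replicate was the highest of each group (1.76, SE 0.45, adjusted p = 0.0022).

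Of 24 tested imprinted genes 14 were lower and 3 higher (median -0.94), with 1 higher without P1 replicate 2. Over all genes 27.1% were lower and 23.1% higher. H19 went from 73.7, 122 and 110 RPM to 28.5, 8.50 and 29.8 RPM (log2 difference -2.29, SE 0.35, adjusted p = 1.04e-05), and Igf2 from 24.7, 33.7 and 33.6 RPM to 8.56, 2.70 and 6.23 RPM (-2.30, SE 0.30). Ndn and Peg10 fell by 2.27 and 2.13, and Peg3 and Impact rose by 0.50 and 0.75. H19 and Igf2 are abundant in many fetal somatic cells, and Col3a1, a collagen of stroma, fell in the same libraries from 17.9, 39.7 and 45.3 RPM to 10.8, 5.14 and 7.55 RPM (-1.95, adjusted p = 0.0010). Across the markers of stroma 4 of 10 tested fell and 2 rose, the 2 being 1 without E18.5 replicate 1 or P1 replicate 1 and none with a minimum of 5 RPM. Across the markers of granulosa cells 9 of 19 fell and none rose, with 14 lower without E18.5 replicate 1, 5 without E18.5 replicate 3 and 4 without P1 replicate 2. Their part in the imprinted list was not tested. Of 34 polycomb and histone methylation genes 16 fell and 5 rose (median -0.26), with 2 higher without E18.5 replicate 3 and 3 without P1 replicate 2. Kmt2a and Kmt2c, which write histone marks of active genes, fell by 1.30 and 1.05 and Nsd1 by 0.88. The polycomb genes Cbx2 and Cbx8 rose by 0.75 and 0.77, and Ezh2 was not called at 0.11.

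**Figure D4:**
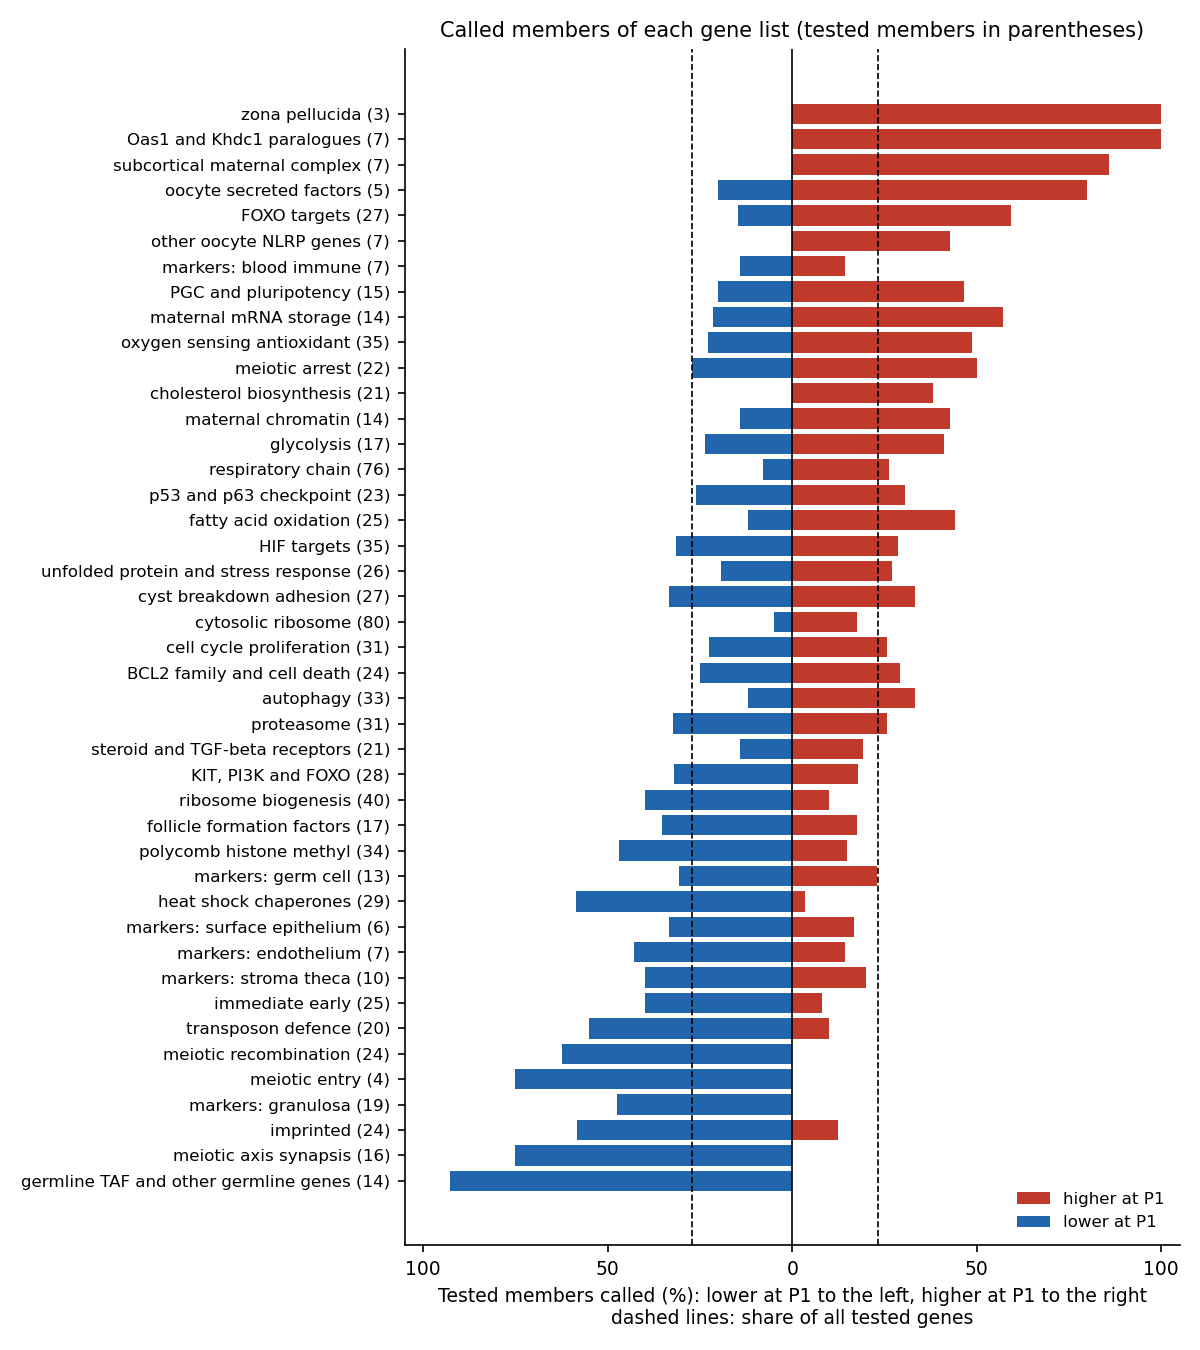
Share of the tested members of each gene list called lower (blue, to the left) or higher (red, to the right) at P1, with lists ordered by their median log2 difference and the number of tested members in parentheses; dashed lines mark the shares over all tested genes, 27.1% lower and 23.1% higher. Zona and Oas1 and Khdc1 genes are called higher throughout, 13 of 14 germline TAF and other germline genes are lower, and the proteasome and cell cycle lists lie near the dashed lines.

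To see where the step from E18.5 to P1 differed from the step that follows, P1 was tested against the midpoint of E18.5 and P3. A gene that changes evenly sits at the midpoint, and 1698 of the 13442 genes were called away from it (12.6%), with 810 above it (6.03%) and 888 below it (6.61%). The count was 770 without P1 replicate 2 and 824 without P1 replicate 3, the 2 libraries nearest to P3, and 1132 without E18.5 replicate 3. Of the meiotic lists, 6 of the 16 axis and synapsis genes and 11 of the 24 recombination genes were below the midpoint and none above. The median differences of these lists were -1.04 and -0.74 into P1, then -0.29 and -0.13 from P1 to P3. Falling genes in general were past the midpoint at P1. The 1316 genes at least 1 log2 unit lower at P3 than at E18.5 put the P1 libraries at 0.648, 0.807 and 0.725 on the scale given above. Tex16 was 1.95 below the midpoint, its mean going from 233 RPM at E16.5 and 53.7 RPM at E18.5 to 2.18 RPM at P1 and 1.63 RPM at P3. Taf7l was lower still at P3, going from 58.4 RPM at P1 to 7.00 RPM at P3 (-0.40 from the midpoint, adjusted p = 0.17). The zona genes had medians of 2.79 into P1 and of 1.22 from P1 to P3, and 2 of the 3 were above the midpoint, while Zp2 was not (0.38, adjusted p = 0.16). Of the 25 fatty acid oxidation genes 7 were above the midpoint and none below.

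At P1 388 genes (2.89%) were called against the midpoint with all 3 values beyond every value of both neighbouring stages, 164 above (1.22%) and 224 below (1.67%). Ttn, the gene of the muscle protein titin, had 102, 196 and 149 RPM at E18.5, 326, 243 and 249 RPM at P1 and a mean of 145 RPM at P3 (log2 distance from the midpoint 0.92, SE 0.20, adjusted p = 0.0029). Perp, a p53 and p63 target of cell junctions, had 19.9, 15.9 and 11.2 RPM, then 45.5, 48.2 and 45.6 RPM and a P3 mean of 38.1 RPM (0.91, adjusted p = 0.00019). Thbs4 and the flippase gene Atp8a2 were 0.87 and 1.08 above the midpoint, and Atp8a2 was not called with the compared groups alone (adjusted p = 0.0558). Cd4, best known as a T-cell receptor partner, had a mean of 0.140 RPM at E16.5 and 14.2, 21.4 and 13.3 RPM at E18.5. It reached 32.2, 26.0 and 24.8 RPM at P1 before a mean of 12.1 RPM at P3 (0.95, adjusted p = 0.0020). Which cells gave these reads was not tested. Cd4 was not called with a pseudocount of 0.1 (adjusted p = 0.0614). Galnt12, which starts O-glycan chains, was 1.07 above (adjusted p = 0.021), but E18.5 replicate 1 with 61.7 RPM nearly reached the lowest P1 value of 62.7 RPM. It was not called without E18.5 replicate 3 (adjusted p = 0.0588), P1 replicate 1 (0.0744), P1 replicate 2 (0.0686) or P1 replicate 3 (0.0549).

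Among genes lowest at P1, Fasn was 1.12 below the midpoint (SE 0.14, adjusted p = 2.16e-05), with a mean of 250.3 RPM at E16.5, 119 RPM at E18.5, 32.6 RPM at P1 and 44.1 RPM at P3. Grb10, an imprinted adaptor of the insulin receptor, went from 26.8, 32.1 and 36.4 RPM to 9.74, 15.5 and 16.01 RPM and back to a mean of 27.8 RPM (-1.07, adjusted p = 0.00061). Dnah7b, an axonemal dynein, and Zfp334 returned likewise, from means of 13.9 and 11.7 RPM at P1 to 23.5 and 23.9 RPM at P3. Khdrbs3 and Map3k15 stayed close to their P1 level, at 8.70 and 35.1 RPM at P3.

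**Figure D5:**
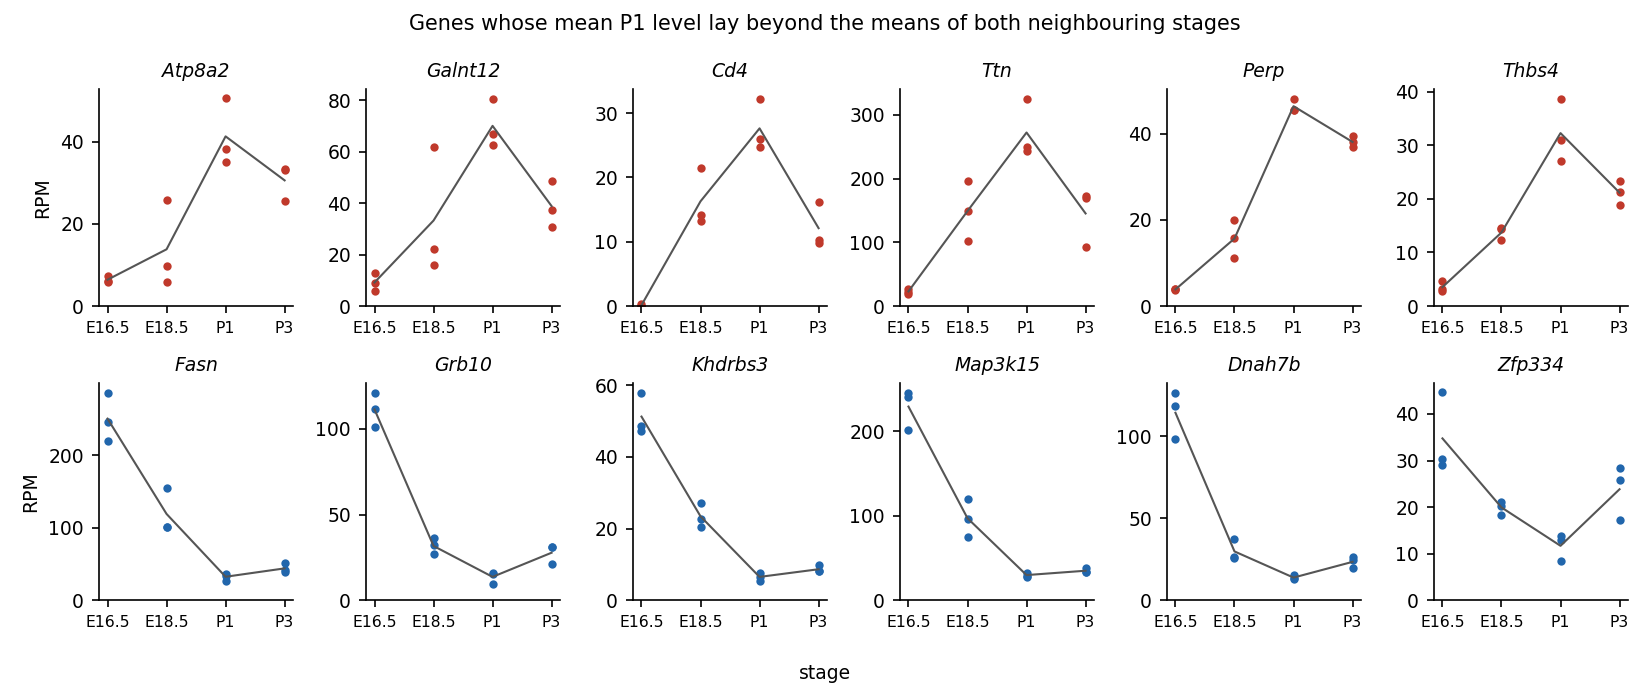
RPM in each library (points, 3 a stage) and stage means (lines) at E16.5, E18.5, P1 and P3 for the 6 genes furthest above and the 6 furthest below the midpoint among those beyond both neighbouring stages; each panel starts at 0 and has its own scale. Cd4 and Ttn peak at P1, and Grb10 and Zfp334 dip at P1 and recover, while Khdrbs3 and Map3k15 barely rise again.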

How the data were processed

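RNA of oocytes was sequenced as poly(A) libraries with strand-marking adapters and 12 PCR cycles, per the labels' protocols. The authors aligned and counted reads with TopHat2, Bowtie2 2.0.13 and featureCounts 1.5.1 on mm10 and used R 3.4.4, per the submitters' processing notes; the annotation, strand setting and filters are not given in the sources used here. The authors deposited one table of RPM. Its values were whole multiples of 1 read in 100% of cases within 0.01 read, so reads could be recovered, and edgeR called 6282 genes on them.

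The test was limma 3.58.1 (R 4.3.3, with trend) on log2(RPM + 1) over the 27 in vivo libraries in 9 groups, with two-sided p-values adjusted by Benjamini and Hochberg's method across 13442 genes and a threshold of 0.05. The second contrast set P1 against the mean of E18.5 and P3. On simulated data the share of 50 changed genes recovered was 54% at a fold of 1.5, 92% at 2 and 100% at 4. Among the unchanged of the 13442 genes there were 21 false calls. Far fewer genes were changed there than were called in the real data, and none was drawn from the lowest levels at E18.5. The shares may therefore differ for the real data. Floors of 3 reads cover counting error only.

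Named genes were the 12 largest rises and falls without overlap and with a group mean of at least 20 RPM, 6 each way beyond both stages, up to 4 called genes of at least 5 RPM a list, and a panel of 22 genes, passing over predicted genes. Other list members were named after their values were seen, and some are not reported here. The genes, lists and panel were chosen with earlier results of these data known. Alternatives were another pseudocount, filter, scaling or tool (edgeR 4.0.16, DESeq2 1.42.0), the compared groups alone, a replicate block and leaving out each library.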

Additional observations from a re-analysis of the deposited data

How the results depend on the processing

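Of 182 named genes tested, 176 were called, 166 kept their call and direction under all 15 alternatives, and none reversed. Most named genes were chosen for being called with large differences in these same libraries, which by itself favours keeping the call. Across alternatives that kept every library, genes called between P1 and E18.5 numbered 5661 (a filter of 5 RPM) to 6782 (no filter), against 6753. Calls with a log2 difference of at least 1 numbered 777 with a pseudocount of 5, against 1765, since it shrinks low genes. Rescaling to median ratios moved the split of 3108 higher and 3645 lower to 3296 and 3265, edgeR to 3323 and 2959 and DESeq2 to 3372 and 3193. Against the midpoint, such calls numbered 286 with a pseudocount of 0.1, 21 with 5, 305 by edgeR and 388 by DESeq2, against 138; the cause was not tested. Leaving out one library gave 5470 to 6567 calls, 2556 to 3105 higher, 2885 to 3462 lower and 1583 to 2083 with a log2 difference of at least 1. Against the midpoint it gave 770 to 1879 calls, 302 to 920 above, 468 to 959 below and 110 to 279 of at least 1. The replicate numbers share only a number: same-numbered E18.5 and P1 libraries deviated together with r of 0.034, 0.108 and 0.036, and E18.5 replicate 3 correlated best with P1 replicate 1 (0.053). A fit with the number as a replicate block called 6746 genes, and 1694 against the midpoint, and changed no named call. Genes near 1 RPM rest on few reads, and 1.5-fold changes were often missed on simulated data.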

Other observations

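Genes on the X chromosome were lower at P1 more often than autosomal genes, as a description over the 12665 of 13442 tested genes with a chromosome in the annotation. Of 476 X-linked genes 175 were called lower (36.8%) and 95 higher (20%), with a median log2 difference of -0.17. Of 12189 autosomal genes 3257 were called lower (26.7%) and 2856 higher (23.4%), with a median of -0.04. A fall of at least 1 log2 unit was called for 82 X-linked genes (17.2%) and for 662 autosomal genes (5.43%). Without the members of the germline TAF list the X held 167 lower of 467 (35.8%), and 75 of at least 1 log2 unit (16.1%). Its share of lower genes was the highest of 20 chromosomes, chromosome 3 being next with 32.5%. X-linked genes sit on one chromosome and are not independent of each other, so no p-value is given.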
